A study of Mus musculus with 34 samples.

Results

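Transcripts of the endocannabinoid system were followed in the cortex of mice that carried a Huntington's disease transgene, a disrupted Hdac4 allele, both or neither. The genes were the cannabinoid receptor gene Cnr1 and 7 genes of enzymes that make or break down its ligands, namely Dagla, Daglb, Mgll, Faah, Napepld, Abhd6 and Abhd12. All probe sets that the array's annotation assigns to one of these symbols were taken, whatever their level, which gave 15 of 45037 probe sets and 8 of 18193 genes. Mgll had 4 probe sets, Cnr1, Faah, Abhd6 and Abhd12 had 2 each, and Dagla, Daglb and Napepld had 1 each.

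Cortex RNA from 34 mice aged 15 weeks was measured on Affymetrix mouse arrays, with 1 array per mouse and both sexes in each genotype by the labels. Dble::R6/2 mice (n = 9) carried the R6/2 transgene and were heterozygous for the Hdac4 knock-out allele, and R6/2 mice (n = 9) carried the transgene alone. Hdac4HET mice (n = 8) were heterozygous for the knock-out allele without the transgene, and WT mice (n = 8) carried neither. The R6/2 transgene expresses a mutant first-exon fragment of human huntingtin, so the line models a fragment rather than the full-length protein, and the Hdac4 allele was made on a 129S background and bred for generations to CBA x C57BL/6 mice, the strain mix of all 4 genotypes.

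Endocannabinoids are lipid messengers that travel backwards across the synapse. In the cortex 2-arachidonoylglycerol (2-AG) is made in the membrane of the receiving neuron by diacylglycerol lipases, binds the CB1 receptor on the sending terminal, damps transmitter release and is then cleared by monoacylglycerol lipase. Anandamide, an N-acylethanolamine, is formed in part by the enzyme NAPE-PLD and is hydrolysed by fatty acid amide hydrolase.

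Array medians lay between 5.44 and 5.52 on the log2 scale, and the lowest correlation of an array with others of its genotype was 0.973. Hdac4 was lower in Dble::R6/2 than in R6/2 mice at probe set 1454693_at (7.25 against 7.86, limma adjusted p = 3.30e-04) and lower in Hdac4HET than in WT mice at the same probe set (7.34 against 7.85, adjusted p = 0.00743). The other 2 Hdac4 probe sets, 1436758_at and 1447566_at, were called lower in Hdac4HET against WT mice (adjusted p = 0.00360 and 0.0299) and were not called in Dble::R6/2 against R6/2 mice (log2 change -0.33, adjusted p = 0.691, and -0.08, adjusted p = 0.945). The level of Xist went against the labelled sex in 15 of 34 arrays, and 4 arrays (Hdac4HET 1 and WT 2, 6 and 7) were high in Prl, a pituitary hormone transcript. Counts are therefore also given without those 4 arrays.

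The receptor and most of the enzymes were lower where the transgene was present. In R6/2 against WT mice 10 of the 15 probe sets fell and 0 rose, at an adjusted p of 0.05 or less from limma with Benjamini-Hochberg adjustment over all 45037 probe sets. Over the whole array 26.9% of probe sets were called in either direction in that comparison and 12% were called lower. The 10 calls covered 7 of the 8 genes, with Napepld the exception. By the brightest probe set of each gene 6 of the 8 were called, as that of Abhd12 was not. The median log2 change of the 15 probe sets was -0.40, beside 0.01 over all probe sets. In Dble::R6/2 against Hdac4HET mice, which share no array with the first comparison, 9 of the 15 fell and 0 rose, where 23.1% of all probe sets were called in either direction and 9.98% lower. Those calls covered 5 genes, Cnr1, Dagla, Mgll, Faah and Abhd6, and the median log2 change was -0.36.

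In 5 of the 15 probe sets every R6/2 mouse lay below every WT mouse, as did 3.03% of all probe sets. The same held for 5 probe sets in Dble::R6/2 against Hdac4HET mice, beside 3.01% of all. Without the 4 arrays high in Prl the counts of calls were 8 for R6/2 against WT, and 9 for Dble::R6/2 against Hdac4HET. The calls lost were Abhd6 1419103_a_at, with a log2 change of -0.41 without those arrays and -0.45 with them, and Abhd12 1453367_a_at, with -0.92 and -0.99. In a piece of cortex, fewer cells of a type and less RNA per cell cannot be told apart.

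**Figure D1:**
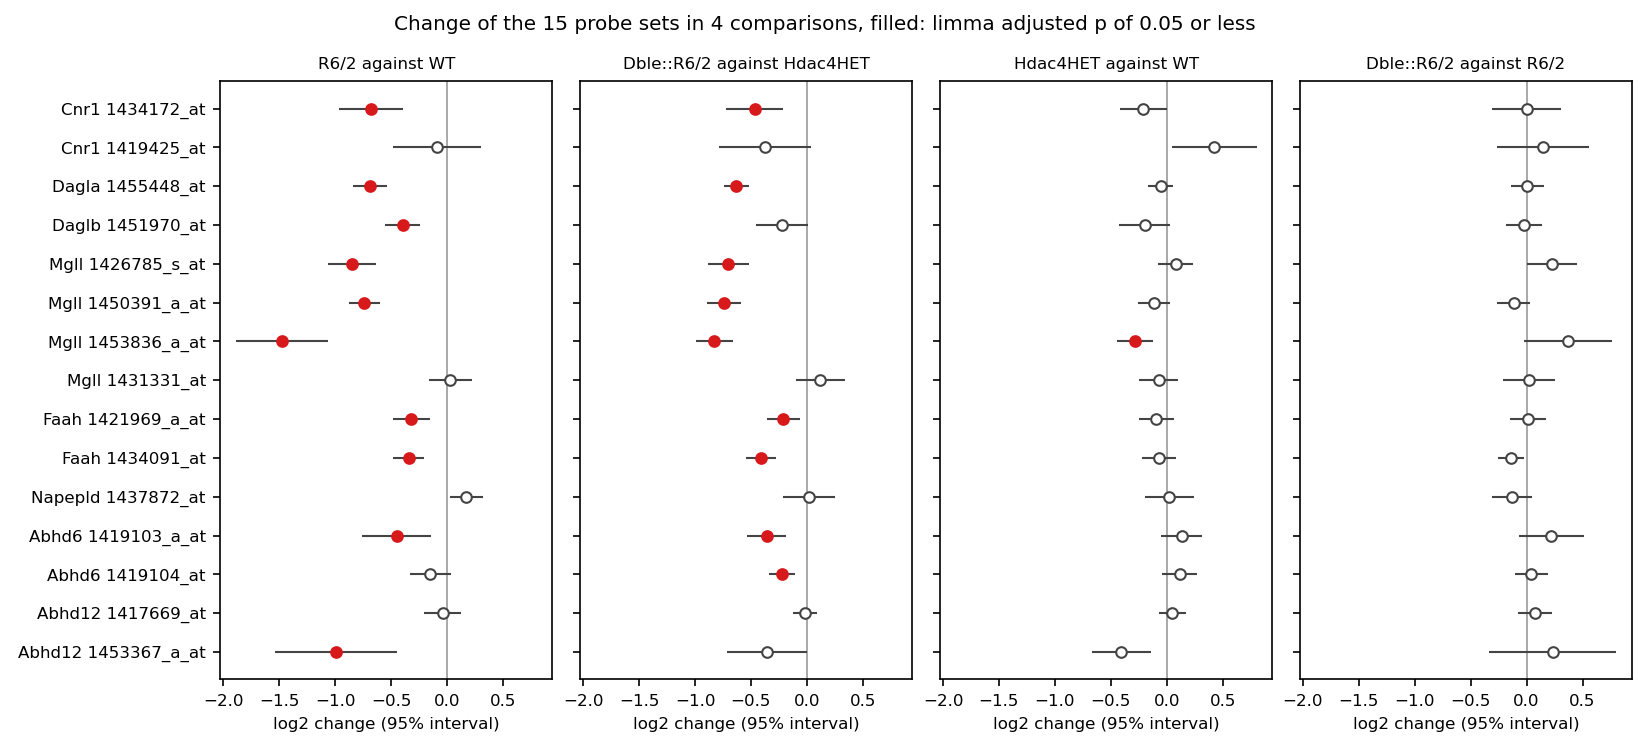
Log2 change (x axis, point with its 95% interval) of each of the 15 probe sets (y axis) in 4 comparisons of genotypes, with filled points for a limma adjusted p of 0.05 or less. Filled points lie left of 0 in the 2 comparisons that test the transgene (10 and 9 of 15), 1 probe set of Mgll is filled for Hdac4HET against WT, and 0 are filled for Dble::R6/2 against R6/2.

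Cnr1 encodes CB1, the receptor through which the brain's endocannabinoids act on sending terminals. Its bright probe set, 1434172_at, had log2 levels from 9.12 to 10.06 with a median of 9.81 in Dble::R6/2 mice, and from 8.96 to 10.05 with a median of 9.80 in R6/2 mice. The levels ran from 9.94 to 10.58 (median 10.13) in Hdac4HET mice and from 10.03 to 10.62 (median 10.43) in WT mice. The transgenic and non-transgenic ranges met only at their ends: 7 of 9 R6/2 mice lay below every WT mouse, and 6 of 9 Dble::R6/2 mice below every Hdac4HET mouse. Cnr1 fell to 62.5% of its WT level in R6/2 mice (log2 change -0.68, SE 0.136, adjusted p = 9.06e-04) and to 72.3% of its Hdac4HET level in Dble::R6/2 mice (log2 change -0.47, adjusted p = 0.00779).

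The other Cnr1 probe set, 1419425_at, was far dimmer on the array and spread more between mice, with an SD of 0.38 to 0.46 in each genotype. Its log2 change was -0.09 (adjusted p = 0.785) in R6/2 against WT mice, with a 95% interval of -0.49 to 0.30, and -0.37 (adjusted p = 0.205) in Dble::R6/2 against Hdac4HET mice. The first interval overlaps that of the bright probe set, -0.96 to -0.39, so the pair of probe sets differed in their call while their intervals met.

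Dagla encodes diacylglycerol lipase alpha, the main source of synaptic 2-AG in the adult brain. Its single probe set, 1455448_at, ran from 8.45 to 8.83 (median 8.68) in Dble::R6/2 mice, from 8.44 to 8.92 (median 8.64) in R6/2 mice, from 9.26 to 9.44 (median 9.31) in Hdac4HET mice and from 9.25 to 9.51 (median 9.37) in WT mice. No transgenic mouse reached the lowest non-transgenic mouse. The level in R6/2 mice was 62.1% of WT (log2 change -0.69, SE 0.072, adjusted p = 1.18e-06), and that in Dble::R6/2 mice was 64.6% of Hdac4HET (log2 change -0.63, SE 0.055, adjusted p = 7.94e-08).

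Daglb encodes diacylglycerol lipase beta, the second enzyme of that reaction, known for its part in microglia and macrophages. Its levels were 6.35 to 6.84 (median 6.57) in Dble::R6/2 mice, 6.21 to 6.73 (median 6.60) in R6/2 mice, 6.21 to 7.08 (median 6.75) in Hdac4HET mice and 6.76 to 7.07 (median 6.96) in WT mice. R6/2 and WT mice did not overlap, while the spread of Hdac4HET mice covered almost the whole range of the other 3 genotypes. Daglb fell to 76.0% of WT in R6/2 mice (log2 change -0.40, SE 0.074, adjusted p = 4.75e-04). The change in Dble::R6/2 against Hdac4HET mice, -0.22 with an SE of 0.110, was not called (adjusted p = 0.170).

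Mgll encodes monoacylglycerol lipase, which hydrolyses most of the brain's 2-AG and is present in sending terminals and astrocytes. It was the gene with the most calls, 3 of its 4 probe sets in each comparison of the transgene. The brightest, 1426785_s_at, ran from 10.05 to 10.63 (median 10.27) in Dble::R6/2 mice, from 9.55 to 10.55 (median 10.12) in R6/2 mice, from 10.85 to 11.21 (median 10.91) in Hdac4HET mice and from 10.70 to 11.09 (median 10.94) in WT mice. For all 3 called probe sets, every mouse with the transgene lay below every mouse without it. At 1426785_s_at the level in R6/2 mice was 55.6% of WT (log2 change -0.85, adjusted p = 6.06e-06), and at 1450391_a_at it was 59.9% (log2 change -0.74, SE 0.067, adjusted p = 2.12e-07). The matching values for Dble::R6/2 against Hdac4HET were 61.5% (-0.70, adjusted p = 7.06e-06) and 59.7% (-0.74, adjusted p = 3.90e-07).

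Among the 15 probe sets the fall of Mgll 1453836_a_at in R6/2 mice was the largest measured. Its levels were 8.62 to 9.19 (median 8.83) in Dble::R6/2 mice, 7.03 to 9.15 (median 8.64) in R6/2 mice, 9.42 to 9.86 (median 9.75) in Hdac4HET mice and 9.83 to 10.29 (median 9.96) in WT mice. The lowest value belonged to R6/2 replicate 2, and the next R6/2 mouse stood at 8.43. The log2 change was -1.48 (SE 0.197, adjusted p = 1.71e-05) with that mouse and -1.29 (SE 0.092, adjusted p = 1.64e-08) without it, and -0.83 (SE 0.079, adjusted p = 2.69e-07) in Dble::R6/2 against Hdac4HET mice. The dim probe set 1431331_at, at the 39.1st percentile of all probe sets by mean level, changed by 0.03 (adjusted p = 0.869) and 0.12 (adjusted p = 0.500) in these comparisons.

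**Figure D2:**
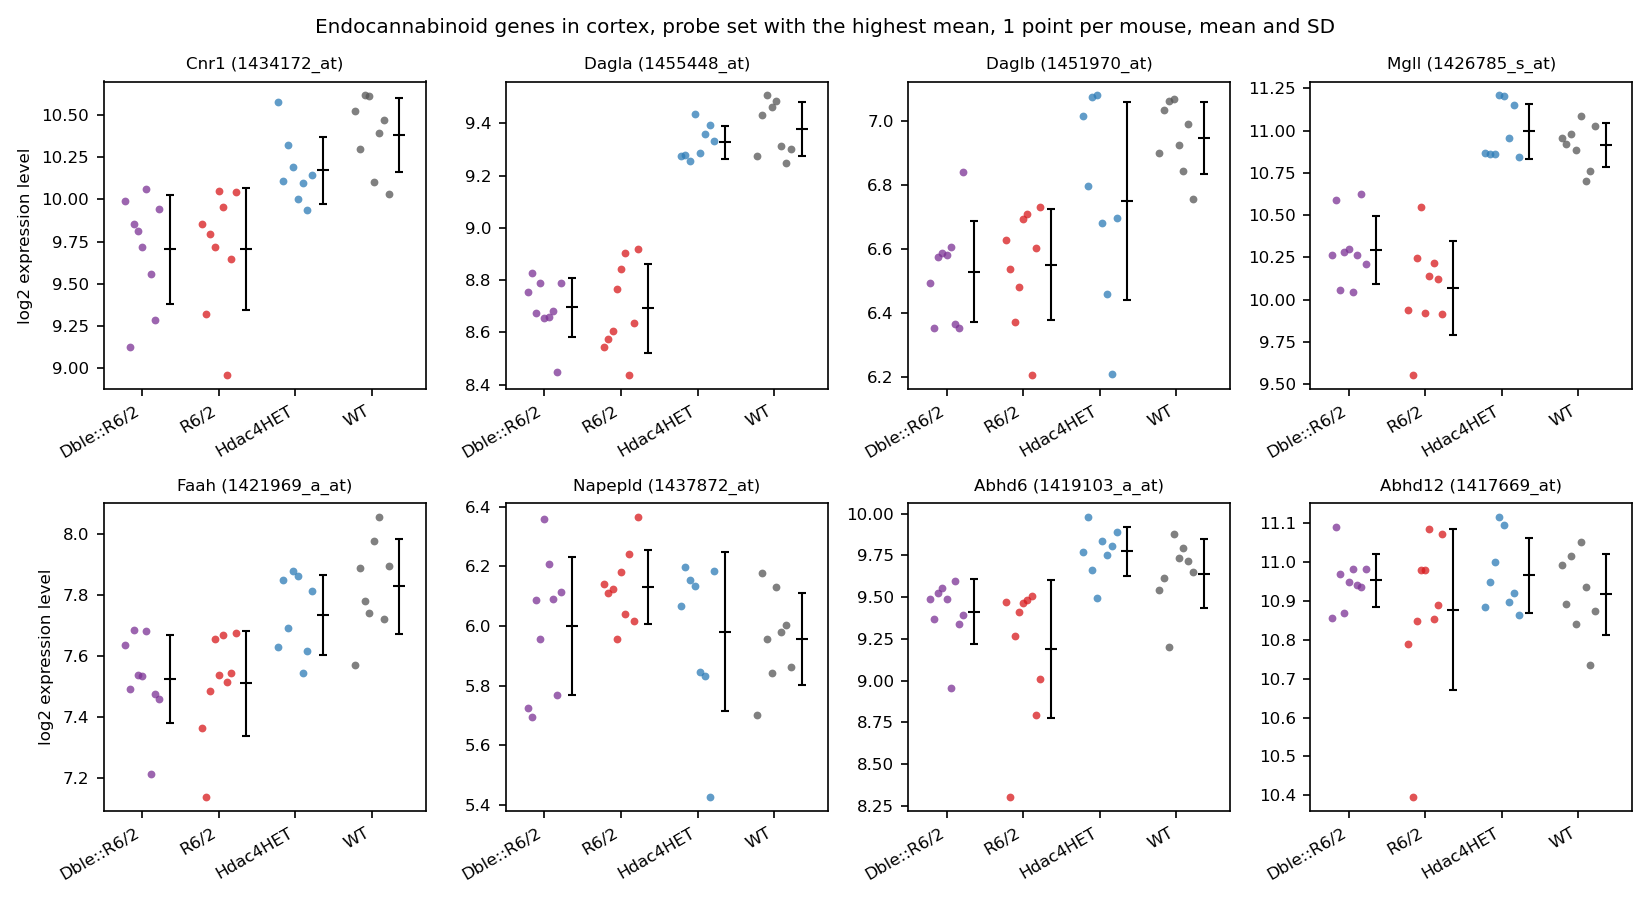
Log2 level (y axis) of the probe set with the highest mean of each of the 8 genes, by genotype (x axis), with 1 point per mouse and the mean and SD beside the points (n = 9, 9, 8 and 8). For Dagla and Mgll all transgenic mice lie below all mice without the transgene, Cnr1, Daglb, Faah and Abhd6 overlap in part, and Napepld and Abhd12 overlap throughout.

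Abhd6 encodes a serine hydrolase that takes 2-AG in the receiving neuron. At 1419103_a_at the levels were 8.95 to 9.60 (median 9.49) in Dble::R6/2 mice, 8.31 to 9.51 (median 9.41) in R6/2 mice, 9.49 to 9.98 (median 9.79) in Hdac4HET mice and 9.20 to 9.88 (median 9.68) in WT mice. Both pairs of genotypes overlapped: 3 of 9 R6/2 mice lay below every WT mouse, and 6 of 9 Dble::R6/2 mice below every Hdac4HET mouse. Abhd6 fell to 73.2% of WT in R6/2 mice (log2 change -0.45, SE 0.148, adjusted p = 0.0293) and to 77.9% of Hdac4HET in Dble::R6/2 mice (log2 change -0.36, adjusted p = 0.00296). The R6/2 call was lost in 6 of 17 fits that left out 1 mouse (WT 4, 5, 6 or 7, R6/2 8 or 9), where its adjusted p reached 0.0593. At 1419104_at the change was -0.15 (adjusted p = 0.233) in R6/2 against WT and -0.22 (adjusted p = 0.00639) in Dble::R6/2 against Hdac4HET mice.

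Abhd12 encodes a hydrolase of lysophosphatidylserine that can also take 2-AG. Its probe sets gave different pictures. At the brighter, 1417669_at, the means were 10.95 ± 0.07 in Dble::R6/2, 10.88 ± 0.21 in R6/2, 10.97 ± 0.10 in Hdac4HET and 10.92 ± 0.10 in WT mice (SD), with log2 changes of -0.04 (95% interval -0.21 to 0.13) in R6/2 against WT and -0.01 (-0.12 to 0.09) in Dble::R6/2 against Hdac4HET mice. All genotypes overlapped there. At 1453367_a_at the levels were 8.54 to 9.68 (median 9.52) in Dble::R6/2, 7.16 to 9.68 (median 9.27) in R6/2, 9.20 to 9.96 (median 9.61) in Hdac4HET and 9.46 to 10.48 (median 9.99) in WT mice.

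That second Abhd12 probe set was at 50.2% of WT in R6/2 mice (log2 change -0.99, SE 0.260, adjusted p = 0.00719), and 6 of 9 R6/2 mice lay below every WT mouse. R6/2 replicate 2 was again the lowest, at 7.16 against 8.75 for the next mouse, and without it the change was -0.77 (SE 0.152, adjusted p = 8.33e-04). In Dble::R6/2 against Hdac4HET mice the change was -0.36 (SE 0.171, adjusted p = 0.157), with Dble::R6/2 replicates 2, 8 and 7 the lowest at 8.54, 8.58 and 8.86. The same 3 Dble::R6/2 mice were the lowest of their genotype for Cnr1 1434172_at, at 9.12, 9.29 and 9.56. R6/2 mice with these numbers, 2, 8 and 7, were likewise the lowest of their genotype at both probe sets. They stood at 7.16, 8.75 and 8.75 for Abhd12 1453367_a_at and at 9.32, 9.65 and 8.96 for Cnr1 1434172_at. Which transcripts of Abhd12 or Mgll each probe set detects was not examined here.

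**Figure D3:**
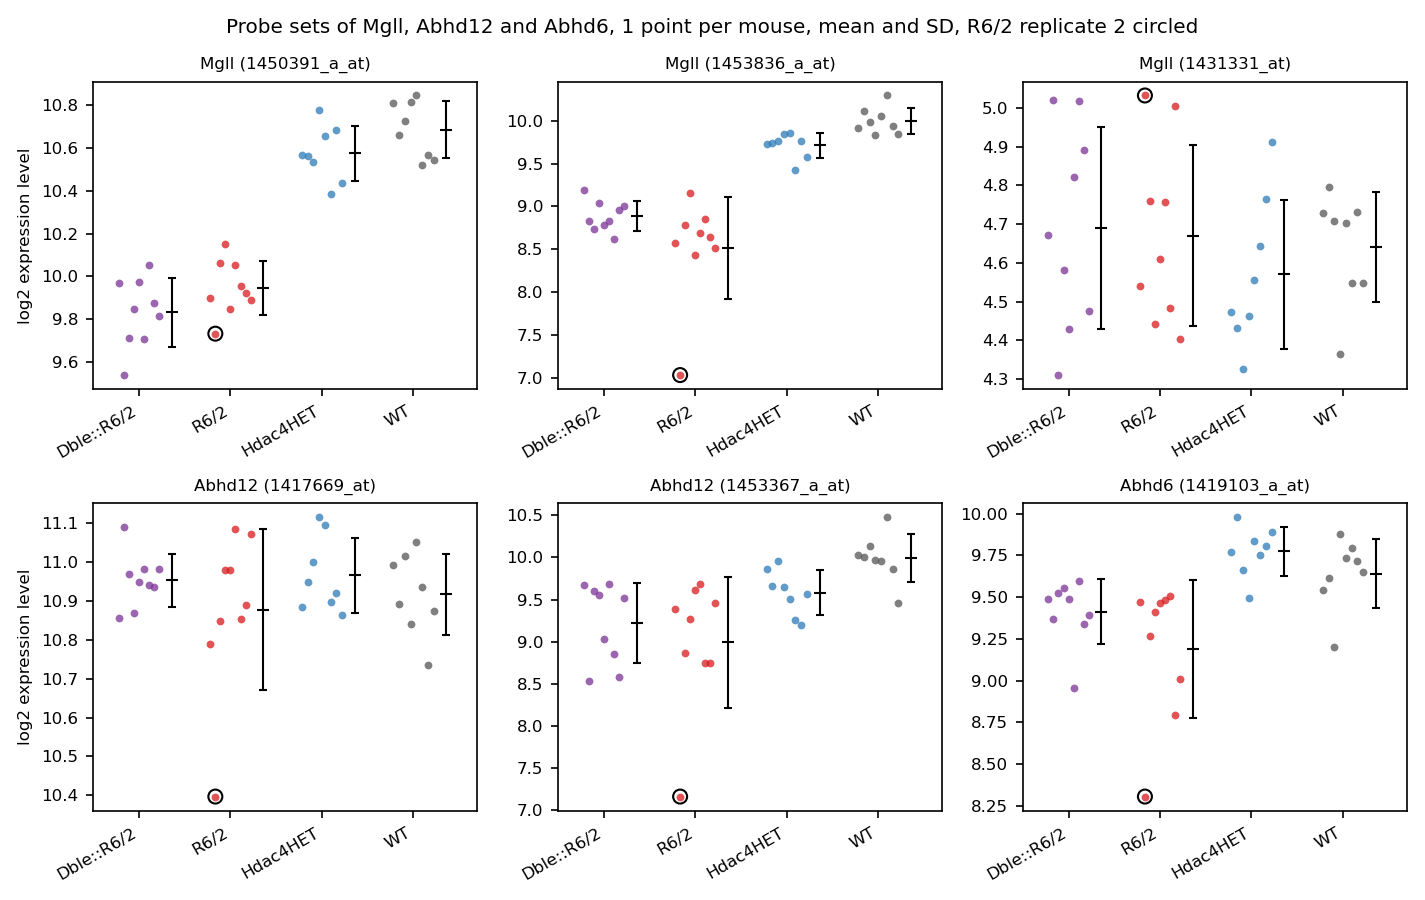
Log2 level (y axis) of 3 probe sets of Mgll, 2 of Abhd12 and 1 of Abhd6 by genotype (x axis), with 1 point per mouse, the mean and SD beside the points, and R6/2 replicate 2 circled. That mouse is the lowest R6/2 mouse in 5 of the 6 panels and the highest in the dim Mgll probe set, and the 2 Abhd12 probe sets differ in how far the genotypes separate.

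R6/2 replicate 2 also had the highest mean level of 9 epidermal markers, 7.01, where the median R6/2 mouse had 5.82. Its part in the Mgll, Abhd12 and Abhd6 values was measured only by leaving it out, as above for Mgll and Abhd12. For Abhd6 1419103_a_at the R6/2 against WT change was then -0.34 (limma adjusted p = 0.0260), beside -0.45 with it. With both that mouse and the 4 arrays high in Prl left out, 9 of the 15 probe sets remained called in R6/2 against WT mice.

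Faah encodes fatty acid amide hydrolase, which ends the action of anandamide. At 1434091_at the levels were 6.95 to 7.08 (median 6.999) in Dble::R6/2, 6.95 to 7.39 (median 7.16) in R6/2, 7.16 to 7.67 (median 7.40) in Hdac4HET and 7.32 to 7.64 (median 7.52) in WT mice. Dble::R6/2 and Hdac4HET mice did not overlap, and 8 of 9 R6/2 mice were below every WT mouse. The level was 78.8% of WT in R6/2 mice (log2 change -0.34, SE 0.066, adjusted p = 5.90e-04) and 75.3% of Hdac4HET in Dble::R6/2 mice (log2 change -0.41, SE 0.064, adjusted p = 8.06e-05).

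The second Faah probe set, 1421969_a_at, was also lower, with log2 changes of -0.32 in R6/2 against WT (adjusted p = 0.00529) and -0.21 in Dble::R6/2 against Hdac4HET mice (adjusted p = 0.0327). The call for Dble::R6/2 was lost in 7 of 17 fits that left out 1 mouse (Hdac4HET 2, 4, 5 or 8, Dble::R6/2 7, 8 or 9), where its adjusted p reached 0.0666. Napepld, which encodes NAPE-PLD and forms anandamide from a membrane phospholipid, was the only one of the 8 genes without a call in any of the comparisons. Its levels were 5.70 to 6.36 (median 6.09) in Dble::R6/2, 5.96 to 6.37 (median 6.12) in R6/2, 5.43 to 6.20 (median 6.10) in Hdac4HET and 5.70 to 6.18 (median 5.97) in WT mice, so all genotypes overlapped. Its log2 change was 0.17 in R6/2 against WT mice (95% interval 0.03 to 0.32, adjusted p = 0.0760) and 0.02 in Dble::R6/2 against Hdac4HET mice (-0.22 to 0.26, adjusted p = 0.937).

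The knock-out allele of Hdac4 alone was compared next, in Hdac4HET against WT mice, where 3.91% of all probe sets were called. Of the 15 probe sets 1 was called, Mgll 1453836_a_at, which was 82.1% of WT (log2 change -0.28, SE 0.075, adjusted p = 0.0446), with 6 of 8 Hdac4HET mice below every WT mouse. That call was lost in 13 of 16 fits that left out 1 mouse (kept without WT 8, Hdac4HET 3 or Hdac4HET 4) and after the 4 Prl-rich arrays were left out, with a change of -0.22 (adjusted p = 0.266). At an unadjusted p under 0.05 there were 4 of 15, beside 21.4% of all probe sets. The other 3 were Abhd12 1453367_a_at (log2 change -0.40, adjusted p = 0.0697), Cnr1 1434172_at (-0.21, adjusted p = 0.230) and the dim Cnr1 1419425_at (0.43, adjusted p = 0.181), so the Cnr1 probe sets had opposite signs here and neither was called.

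On the transgenic background, Dble::R6/2 against R6/2 mice, limma called 0 of the 15 probe sets and 0.00666% of all. At an unadjusted p under 0.05 there was 1 of 15, beside 5.68% of all: Faah 1434091_at, with a log2 change of -0.14 (95% interval -0.25 to -0.02, adjusted p = 0.848). The 95% intervals show how large a difference these mice leave room for. For Cnr1 1434172_at it was -0.31 to 0.31 around a change of 0.00, and for Dagla it was -0.14 to 0.15 around 0.00. The interval for Mgll was wider, from -0.00 to 0.45 at 1426785_s_at and from -0.03 to 0.76 at 1453836_a_at. There 9 of 9 Dble::R6/2 mice stood above the mean of the R6/2 mice, and 1 of 9 above every R6/2 mouse. That R6/2 mean, 8.52 beside a median of 8.64, includes the low replicate 2 (7.03). Without R6/2 replicate 2 the change at 1453836_a_at was 0.18 (SE 0.093, adjusted p = 0.887).

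Whether the change with the transgene differed between the Hdac4 backgrounds was tested as an interaction over all 34 arrays. It was called for 0 of the 15 probe sets and 0.00222% of all, and 1 of 15 had an unadjusted p under 0.05, beside 9.87% of all. That was Mgll 1453836_a_at, whose fall was smaller on the Hdac4HET background by 0.65 on the log2 scale (95% interval 0.20 to 1.10, adjusted p = 0.314), or by 0.47 (adjusted p = 0.238) without R6/2 replicate 2. For Daglb and Abhd12 1453367_a_at, called in 1 comparison of the transgene and not in the other, the differences were 0.17 (SE 0.135, adjusted p = 0.708) and 0.64 (SE 0.327, adjusted p = 0.527), the second being 0.41 (SE 0.241, adjusted p = 0.639) without R6/2 replicate 2. The falls are thus not shown to differ between backgrounds. In order of level, the bright probe sets of Cnr1, Dagla, Faah and Abhd6 placed both transgenic genotypes below both others, and neighbours within each pair of genotypes were not told apart by the test.

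RefSeq promoters (build GRCm38.p6, 250 bases before to 50 after a start site) were given for 6 of the 8 genes. Sequences of 3 genes that were called lower in R6/2 mice and of Napepld, which had no call, are shown so that their start regions can be read side by side. The letters are 5′ to 3′ on the gene's strand, with capitals for matches to GGGCGG (GC box), TGACG (the core of the cAMP response element TGACGTCA, which contains it) and TATAAA, on either strand.
Cnr1 promoter (chr4:33924014-33924313, plus strand): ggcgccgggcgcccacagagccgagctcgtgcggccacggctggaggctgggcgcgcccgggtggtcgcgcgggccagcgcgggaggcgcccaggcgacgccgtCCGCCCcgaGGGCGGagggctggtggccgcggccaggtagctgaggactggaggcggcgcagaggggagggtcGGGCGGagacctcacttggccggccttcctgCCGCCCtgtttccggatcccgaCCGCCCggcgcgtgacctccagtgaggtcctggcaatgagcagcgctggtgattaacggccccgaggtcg
Mgll promoter (chr6:88724162-88724461, plus strand): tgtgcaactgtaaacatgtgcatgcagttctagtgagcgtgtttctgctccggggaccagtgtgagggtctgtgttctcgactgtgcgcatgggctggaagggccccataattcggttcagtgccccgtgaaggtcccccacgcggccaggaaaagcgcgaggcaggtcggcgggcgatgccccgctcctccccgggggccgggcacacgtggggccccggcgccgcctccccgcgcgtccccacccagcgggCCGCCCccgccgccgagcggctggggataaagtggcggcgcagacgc
Daglb promoter (chr5:143464243-143464542, plus strand): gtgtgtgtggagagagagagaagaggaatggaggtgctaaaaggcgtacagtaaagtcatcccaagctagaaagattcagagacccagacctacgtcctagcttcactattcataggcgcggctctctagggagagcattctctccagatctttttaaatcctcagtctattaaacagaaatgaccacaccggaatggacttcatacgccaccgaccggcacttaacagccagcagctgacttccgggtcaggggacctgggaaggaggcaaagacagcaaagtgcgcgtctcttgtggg
Napepld promoter (chr5:21701573-21701872, minus strand): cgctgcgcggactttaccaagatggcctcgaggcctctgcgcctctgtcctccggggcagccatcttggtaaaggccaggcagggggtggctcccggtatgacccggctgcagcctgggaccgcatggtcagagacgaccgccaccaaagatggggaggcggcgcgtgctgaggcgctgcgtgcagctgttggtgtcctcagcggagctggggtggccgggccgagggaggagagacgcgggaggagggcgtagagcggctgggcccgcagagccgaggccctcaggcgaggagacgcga

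The Cnr1 sequence, from the first of its 3 start sites, held 5 GC boxes and 40 CpG, more CpG than 96.1% of 32851 promoters of that length. The Mgll sequence held 1 GC box and 32 CpG, the Daglb sequence had no capitals and 11 CpG, and the Napepld sequence had no capitals and 28 CpG. Of the 10 start sites of the 6 genes, GC boxes were found at the first of Cnr1 and at that of Faah. Each start of Mgll and Abhd6 held 1 too, and the Abhd6 windows overlap and share theirs. The TGACG core lay at 1 start, the second of Mgll, and 0 starts matched the full element or TATAAA. Among all promoters 35.7% held the GC box, 20.8% the TGACG core, 1.79% the full element and 13.6% TATAAA. A match describes the letters of these windows and no binding was measured.

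Genes upstream of 2-AG synthesis moved both ways. Of 8 measured partners (receptors, Gq-type subunits and phospholipases that supply diacylglycerol), 4 fell and 2 rose in R6/2 against WT mice, by the brightest probe set of each gene. Over all probe sets 26.9% were called in that comparison and 23.1% in Dble::R6/2 against Hdac4HET mice, with 12% and 9.98% called lower. Plcb1, a phospholipase C of cortical neurons, fell by 0.78 on the log2 scale (SE 0.052, adjusted p = 5.52e-09). The muscarinic receptor Chrm1 had a change of -0.43 (adjusted p = 1.00e-04) and Plcb4 one of -0.19 (adjusted p = 0.0405). The fourth fall was that of the muscarinic receptor Chrm3 (-0.69, adjusted p = 3.82e-04), whose probe set averaged 3.71 over all arrays, under the median of every array, so that its fold is uncertain. Plcb3 and the G protein subunit Gnaq rose by 0.34 (adjusted p = 0.00281) and 0.31 (adjusted p = 0.00137), and the glutamate receptor Grm5 was not called (-0.18, adjusted p = 0.0863). In Dble::R6/2 against Hdac4HET mice 3 of these 8 fell and 2 rose, with Plcb1 at -0.75 (adjusted p = 1.10e-05), Chrm1 at -0.45 (adjusted p = 3.77e-06) and Chrm3 at -0.45 (adjusted p = 6.80e-05).

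The remaining lists are given beside the 26.9% and 23.1% of all probe sets called in these comparisons. Of 4 other cannabinoid-responsive receptors, the dim Cnr2 (mean level 3.36) among them, 0 were called in R6/2 against WT and 0 in Dble::R6/2 against Hdac4HET mice. Of 6 CB1-interacting proteins and Gi/o subunits 1 rose in R6/2 mice, the subunit Gnai2 (log2 change 0.51, adjusted p = 2.09e-04), and 2 rose in Dble::R6/2 mice. Of 8 other enzymes of N-acylethanolamine synthesis, Gde1, a phosphodiesterase of that pathway, fell (-0.28, adjusted p = 0.00198) and its relative Gdpd1 rose (0.35, adjusted p = 0.00125) in R6/2 mice, with 1 lower and 1 higher in Dble::R6/2 mice as well. Of 7 other enzymes of hydrolysis or oxidation, Ptgs2, the inducible cyclooxygenase, fell by 1.06 on the log2 scale (SE 0.236, adjusted p = 0.00213) in R6/2 mice and had a change of -1.08 (adjusted p = 1.42e-04) in Dble::R6/2 mice, where Lipe, which encodes hormone-sensitive lipase, rose (0.28, adjusted p = 0.00122). Of 3 fatty acid binding carriers 2 fell in each comparison. Fabp7, the carrier of astrocytes and their precursors, had changes of -0.97 (adjusted p = 1.53e-05) in R6/2 against WT and -1.06 (adjusted p = 1.04e-05) in Dble::R6/2 against Hdac4HET mice. In Hdac4HET against WT and in Dble::R6/2 against R6/2 mice 0 genes of these 6 lists were called.

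**Figure D4:**
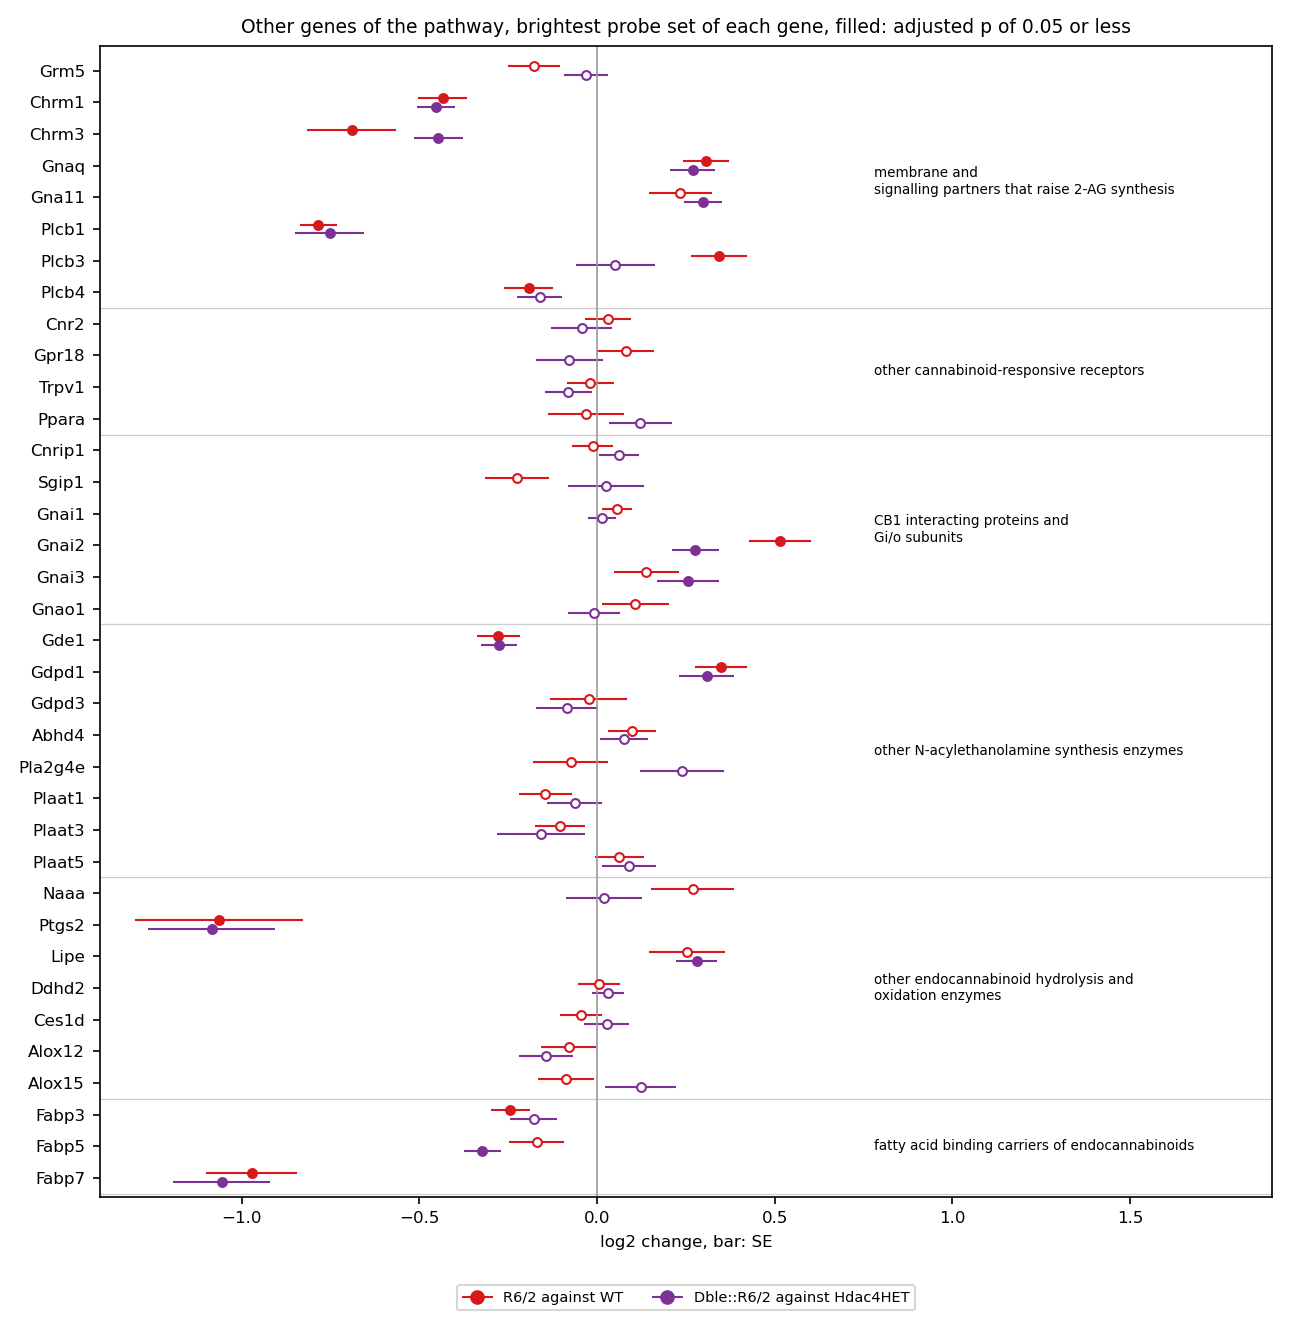
Log2 change (x axis, point with its SE) of the brightest probe set of each measured gene in 6 lists of other pathway genes (y axis), for R6/2 against WT and Dble::R6/2 against Hdac4HET, with filled points for a limma adjusted p of 0.05 or less. Plcb1, Chrm1, Chrm3, Gde1, Ptgs2 and Fabp7 are filled left of 0 in both comparisons, and Gnaq, Gnai2 and Gdpd1 are filled right of 0 in both.

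Markers of cells that use this system moved with the transgene too, and their part in the changes above was not tested. Cck-type interneurons are the cells richest in CB1 in cortex. Of 8 measured genes in a list drawn up for these interneurons 6 fell in R6/2 against WT mice and 8 fell in Dble::R6/2 against Hdac4HET mice. Over all probe sets 12% and 9.98% were called lower. Cck changed by -0.86 (adjusted p = 9.58e-07) and -0.88 (adjusted p = 1.26e-07). The list as drawn up also held Gad1, Gad2 and Slc32a1, genes of GABAergic neurons in general, so its falls cannot be assigned to Cck-type cells. Nor can the fall of Cck, since RNA of whole cortex does not show which cells held it. The mean level of the list was 8.40 to 8.66 in Dble::R6/2, 8.50 to 8.86 in R6/2, 9.20 to 9.45 in Hdac4HET and 9.24 to 9.52 in WT mice, with no overlap between mice with and without the transgene.

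Markers of cortical glutamatergic neurons were bright in every array, with a mean level of 9.41 to 9.60 in Dble::R6/2, 9.49 to 9.65 in R6/2, 9.75 to 9.93 in Hdac4HET and 9.66 to 9.92 in WT mice, again with no overlap between mice with and without the transgene. The counts that follow stand beside 12% of all probe sets called lower in R6/2 against WT mice and 9.98% in Dble::R6/2 against Hdac4HET mice. In either direction these shares were 26.9% and 23.1%. Of 6 such glutamatergic markers 4 fell and 1 rose in R6/2 mice, and 3 fell in Dble::R6/2 mice. Of 10 astrocyte markers 7 fell and 1 rose in R6/2 mice and 7 fell in Dble::R6/2 mice, and their mean level was 9.57 to 9.80 in Dble::R6/2, 9.59 to 9.75 in R6/2, 9.95 to 10.07 in Hdac4HET and 9.92 to 10.14 in WT mice, with no overlap either. Microglial markers fell in 6 of 9 cases in R6/2 and 8 of 9 in Dble::R6/2 mice, and oligodendrocyte markers in 5 of 9 cases in both. Of 7 endothelial markers 0 fell and 1 rose in R6/2 mice, and 1 fell and 1 rose in Dble::R6/2 mice. Striatal markers, which a dissection can carry over, had a mean level of 6.68 to 7.10 in Dble::R6/2 and 6.71 to 7.97 in R6/2 mice. Their mean level was 7.32 to 8.35 in Hdac4HET and 7.30 to 8.11 in WT mice. The highest R6/2, Hdac4HET and WT mice were those numbered 3. Of 8 such markers 2 fell in R6/2 and 5 in Dble::R6/2 mice.

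Across the array the genes whose pattern was closest to Cnr1 1434172_at were found by the root mean square difference, over 34 arrays, of log2 levels set against each gene's WT mean. The nearest 5 were Sparcl1 (0.14), Slitrk1 (0.15), Nr3c1 (0.16), Tm6sf1 (0.16) and Tppp (0.16). Cnr1's own deviation from its WT mean was 0.57 by the same measure. Sparcl1 encodes a matrix protein secreted by astrocytes, Slitrk1 a neuronal adhesion protein and Nr3c1 the glucocorticoid receptor. Their log2 changes in R6/2 against WT mice were -0.64, -0.73 and -0.72, beside -0.68 for Cnr1, and they follow from the choice of like patterns.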

How the data were processed

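The authors extracted total cortex RNA, hybridised it to Affymetrix 3′ expression arrays and checked array quality. The values the authors deposited are on the log2 scale, 1 level for each probe set and array. How background was corrected and arrays were normalized and summarised is not given in the sources used here. All 34 columns were matched to samples by name. Probe sets with 1 gene symbol were named through the platform annotation, and a gene with several probe sets was represented in list counts by the one with the highest mean over all arrays. The shares printed beside list counts cover all probe sets, dim and unnamed ones included. The share among the brightest probe sets of all genes is not given, so the list counts have no like-for-like background.

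limma 3.58.1 under R 4.3.3 compared pairs of genotypes on the deposited log2 values, through lmFit and eBayes without a trend or a filter on dim probe sets, with Benjamini-Hochberg adjustment over all 45037 probe sets and calls at an adjusted p of 0.05 or less. The interaction used all 4 genotypes. Each array is 1 mouse, so p-values measure the spread between mice. The number of arrays limits the precision. The fits were tested on simulated data. All members are named. In the 6 pathway lists, up to 3 called genes in each direction for R6/2 against WT were named. Of the carriers that fell only Fabp7 was named. Plcb4, Grm5, Cnr2, Lipe and values for other comparisons were added after seeing them. The members, gene lists and markers were chosen with earlier results of these data known. Alternatives were quantile normalization, brighter probe sets only, array weights, trend and robust fits, sex by label or by Xist, a replicate block, a first residual component, 1 fit for all genotypes, the methods' t-test, a fold change over 30%, arrays left out in turn, and arrays high in Prl left out. Leaving out R6/2 replicate 2 together with those arrays, and from the interaction, was added after seeing the data.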

Additional observations from a re-analysis of the deposited data

Results flagged for a closer look

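Each of the 15 probe sets was examined in each genotype for a mouse far from the rest, and 8 of 60 groups held one, where chance gives about 1 group in 20. R6/2 replicate 2 was low at Mgll 1453836_a_at (7.03, next 8.43), at Abhd12 1453367_a_at (7.16, next 8.75) and at Abhd12 1417669_at (10.40, next 10.79). Dble::R6/2 mice supplied 4 of the flags, each a different mouse. Replicate 8 was low for Dagla (8.45, next 8.65), replicate 7 for Faah 1421969_a_at (7.22, next 7.46), replicate 6 for Abhd6 1419103_a_at (8.95, next 9.34) and replicate 3 for Abhd6 1419104_at (8.46, next 8.59). WT replicate 8 was high for Abhd6 1419104_at (9.12, next 8.81).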

How the results depend on the processing

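No change of direction was found among the called results under the alternatives run. The count of called probe sets for R6/2 against WT was 10, with 9 by the methods' t-test after Benjamini-Hochberg adjustment, and 8 with a fold change over 30% or without the arrays high in Prl. For Dble::R6/2 against Hdac4HET it was 9, with 6 at a fold change over 30% and 11 with the first residual component. For Hdac4HET against WT the count of 1 call became 2 with brighter probe sets only or with sex from the labels, 3 with the first residual component, and 0 with sex from Xist, without the arrays high in Prl, with all genotypes in one fit, by the methods' t-test or with a fold change over 30%. The causes of these moves were not tested. Leaving out 1 mouse at a time gave 9 to 11, 8 to 10 and 0 to 2 calls for these comparisons, and 0 throughout for Dble::R6/2 against R6/2. Some of these fits added a call: Napepld was called higher in R6/2 than in WT mice without WT 2, WT 5 or R6/2 4 (lowest adjusted p = 0.0380), and Daglb lower in Dble::R6/2 than in Hdac4HET mice without Hdac4HET 7 (adjusted p = 0.0286). The interaction had 0 calls in every setting.

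Whether replicate numbers pair the mice was not settled. Deviations from the genotype means correlated above 0.1 between same-numbered mice in 4 of 8, 3 of 8, 3 of 8 and 6 of 9 pairs in the 4 comparisons. The median correlation was 0.07, 0.002 and -0.03 in the first comparisons and 0.25 in Dble::R6/2 against R6/2 mice. In that last comparison 3 of 9 Dble::R6/2 mice were most like the R6/2 mouse of their own number. With the replicate number as a block the counts were 10 for R6/2 against WT, 8 for Dble::R6/2 against Hdac4HET and 0 for both comparisons of the Hdac4 allele. The 3 dimmest probe sets, Mgll 1431331_at, Napepld 1437872_at and Cnr1 1419425_at, limit what can be said of the transcripts they detect, and Napepld has no other probe set.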
